A study of Mus musculus with 2 samples.

Results

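The genes described here are Tnfsf12, which encodes the cytokine TWEAK, its receptor gene Tnfrsf12a (Fn14), Tnfsf10, which encodes the cytokine TRAIL, and Tnfrsf10b, the gene of the TRAIL death receptor. They were taken by name as 2 ligand and receptor pairs, 4 of the 31053 genes in the files, and all 4 were found in both libraries. TWEAK is a ligand of the tumour necrosis factor family made as a membrane protein and released by cleavage. It binds Fn14, a small receptor that is scarce in healthy tissue, appears on injured tubule and wasting muscle, and signals through TRAF adaptors to NF-kB and chemokine genes. TRAIL binds the death receptor encoded by Tnfrsf10b, which recruits FADD and caspase 8 and can start apoptosis, and mice also carry decoy receptors that bind TRAIL without a death signal.

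Single-cell 3' RNA profiles came from 2 kidney libraries of 5-week-old mice, 1 labelled Kif3aΔTub and called knockout here, and 1 labelled WT and called wild type. Kif3a is a motor protein subunit needed to build the primary cilium, and the Tub in the label is read here as tubule. The Cre driver, the mouse strain and the number of mice behind each library are not given in the sources used here. Per the series title, the study asked how procachectic factors of kidney disease relate to muscle wasting.

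The filters left 7066 knockout cells (median depth 7799 UMIs, 7.54% of them mitochondrial) and 4317 wild type cells (median depth 7771 UMIs, 26.8% of them mitochondrial). The libraries shared 20 cell barcodes. Kif3a stood at 12.2 CPM (UMIs per 1e+06 of the summed cells) over all knockout cells and 10.3 CPM over all wild type cells, and a 3' tag may lie outside the deleted part, so this checks neither the deletion nor the labels. Transcripts of the Y-linked gene Ddx3y stood at 49.8 CPM in knockout and 54.0 CPM in wild type. Cells were classed by Leiden clusters (groups of cells with like profiles) and marker genes, and 6 classes had at least 100 cells in each library: proximal tubule-like, thick ascending limb-like, distal convoluted tubule-like, principal-like, intercalated-like and endothelium-like. Each class was named by at least 3 of its own markers, but some clusters also passed markers of other types. Distal convoluted tubule-like cluster 20, with 314 knockout cells, also passed principal markers such as Aqp2 and Aqp3, and thick ascending limb and injury markers. It did not pass Pvalb or Trpm6, which wild type cluster 28 passed, so this class compares cells with unlike markers. In most tubule classes, however, the knockout cells lay in other clusters than the wild type cells: cluster 0 against clusters 9, 22, 26 and 27 for proximal tubule, 3 against 25 for thick ascending limb, 20 against 28 for distal convoluted tubule, and 5 and 1 against 6 for principal cells. Principal-like cluster 6, with 156 of the 170 wild type cells, was led by connecting tubule genes such as S100g and Calb1. Principal-like clusters 5 and 1, with 1121 and 699 knockout cells, were led by Lcn2 and Aqp2. The principal-like ratios and list counts thus also compare largely cells with unlike leading genes. Intercalated-like and endothelium-like cells of both libraries lay in shared clusters. With 1 library per genotype nothing reported here has a replicate check, no p-value was computed, and each interval given is a 95% interval for counting error alone.

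The TWEAK receptor gene Tnfrsf12a was higher in the knockout in all 6 classes. Thick ascending limb-like cells, the salt-absorbing cells of the loop of Henle, had 80.4 CPM (73.9 to 87.2, 576 UMIs) in knockout and 6.90 CPM (4.32 to 10.4, 22 UMIs) in wild type. In distal convoluted tubule-like cells it was 67.9 CPM (60.0 to 76.4) in knockout and 11.2 CPM (6.42 to 18.3) in wild type. Proximal tubule-like cells, which reabsorb most of the filtered load, had 64.5 CPM (59.7 to 69.5) in knockout and 5.08 CPM (4.31 to 5.95) in wild type. The knockout interval lay above the wild type interval in each of these classes. Principal-like cells of the connecting tubule and collecting duct had 46.6 CPM (44.2 to 49.1) in knockout and 5.42 CPM (2.18 to 11.2) in wild type. Intercalated-like cells, the acid and base secreting cells of the collecting duct, had 31.7 CPM (26.1 to 38.2) in knockout and 5.32 CPM (3.10 to 8.53) in wild type. Endothelium-like cells had the lowest knockout level of the 6 classes, 18.2 CPM (12.5 to 25.7), against 3.08 CPM (0.373 to 11.1, 2 UMIs) in wild type.

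**Figure D1:**
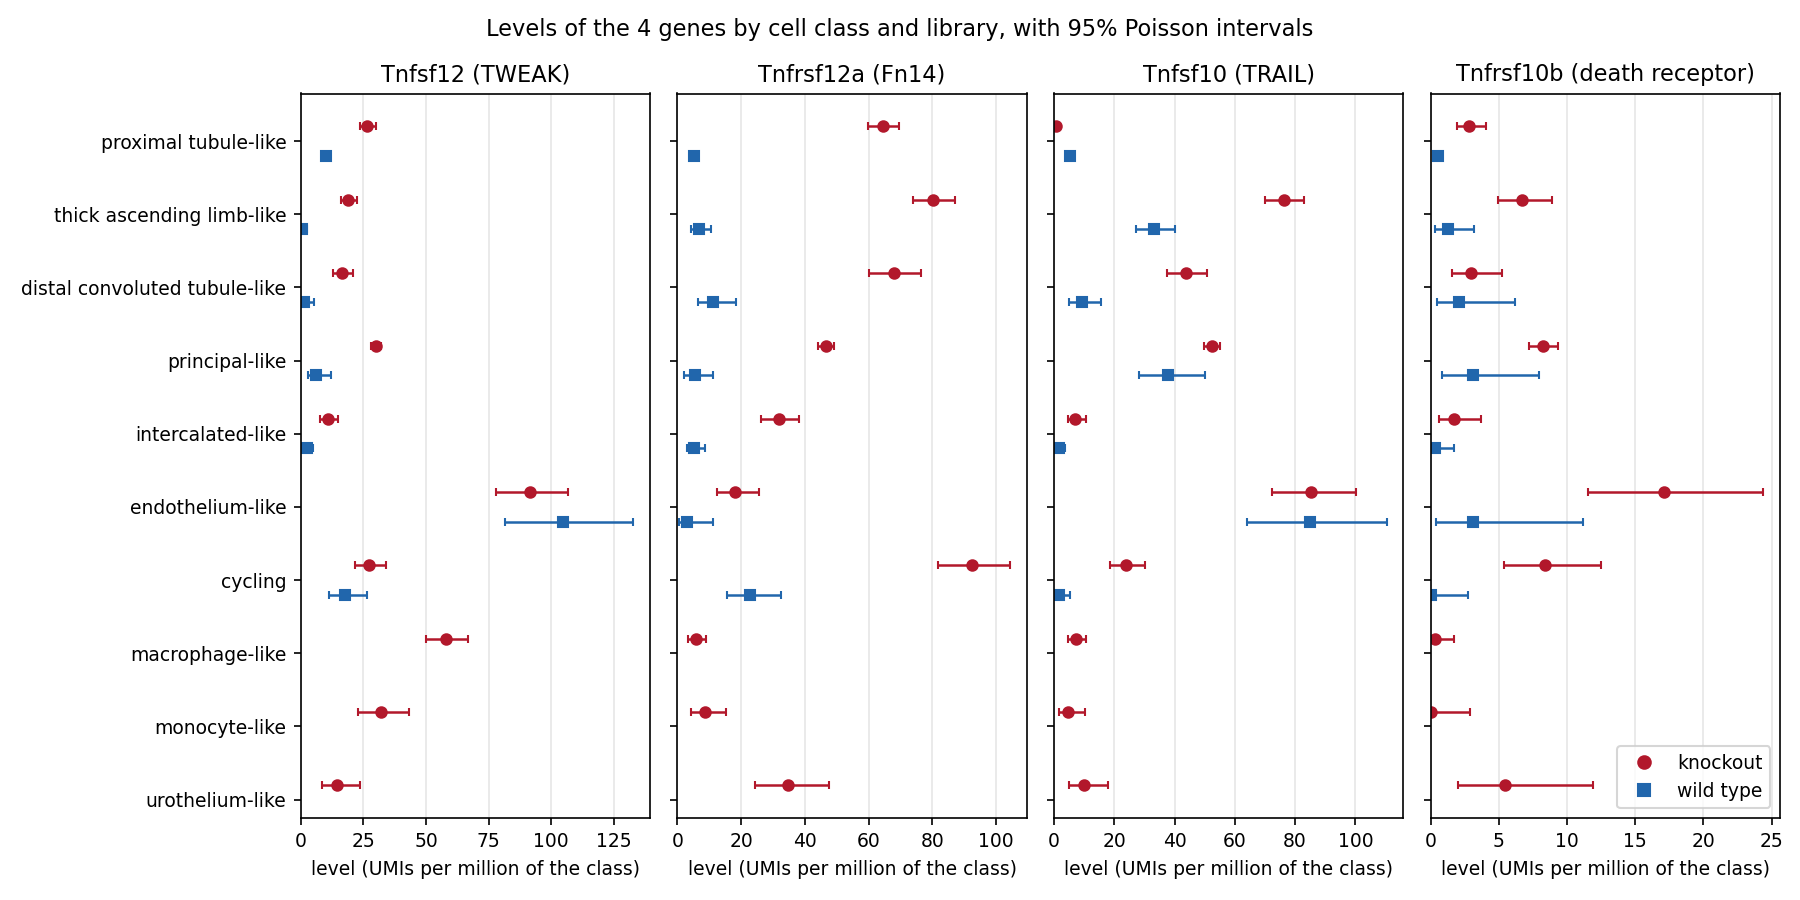
Level of each gene in CPM (horizontal axis) by cell class, with knockout as circles above wild type as squares and 95% Poisson intervals as bars; classes with under 50 cells in a library have no point for it. Tnfrsf12a in the 6 compared classes runs from 18.2 CPM in endothelium-like to 80.4 CPM in thick ascending limb-like knockout cells, against 3.08 to 11.2 CPM in wild type. Macrophage-like and monocyte-like knockout cells lie below the other knockout classes shown, at 5.71 and 8.54 CPM. The 2 ligands are high in endothelium-like cells of both libraries.

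On the log2 scale (0.5 UMIs added to each sum), the knockout over wild type ratio of Tnfrsf12a was 3.66 (3.41 to 3.93) in proximal tubule-like, 3.51 (2.93 to 4.23) in thick ascending limb-like and 3.01 (2.06 to 4.42) in principal-like cells. It was 2.55 (1.87 to 3.42) in distal convoluted tubule-like, 2.54 (1.83 to 3.40) in intercalated-like and 2.26 (0.59 to 5.67) in endothelium-like cells. The median gene itself had a log2 ratio above 0 in every class, at 0.24 in proximal tubule-like, 0.46 in thick ascending limb-like, 0.56 in distal convoluted tubule-like, 0.10 in principal-like, 0.24 in intercalated-like and 0.03 in endothelium-like cells. In principal-like cells the ratio moved with the settings, at 1.33 under a 25% mitochondrial limit and 1.71 to 1.94 with doublets kept, the members in the clustering or a finer resolution. The class then held 898, 993, 919 and 1287 knockout cells in that order, against 1978 in the reported setting. The set of cells under the name thus changed along with the setting. Relative to the median gene, the Tnfrsf12a ratios were 3.43, 3.05, 2.00, 2.91, 2.30 and 2.24 in the same order of classes. For comparison, the share of all genes with at least 20 UMIs that were at least 2-fold higher in knockout was 13.0% in proximal tubule-like, 23.3% in thick ascending limb-like, 27.4% in distal convoluted tubule-like, 13.7% in principal-like, 8.78% in intercalated-like and 4.92% in endothelium-like cells. The share at least 2-fold lower was 4.12%, 4.67%, 4.10%, 7.17%, 3.23% and 3.62%. Of the 4 genes, 3 were 2-fold higher and 1 lower in proximal tubule-like cells, all 4 were higher in thick ascending limb-like and intercalated-like cells, 3 in distal convoluted tubule-like and principal-like cells and 2 in endothelium-like cells. Tnfrsf10b had under 20 UMIs in distal convoluted tubule-like and intercalated-like cells and so stood outside the genes counted for those shares.

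**Figure D2:**
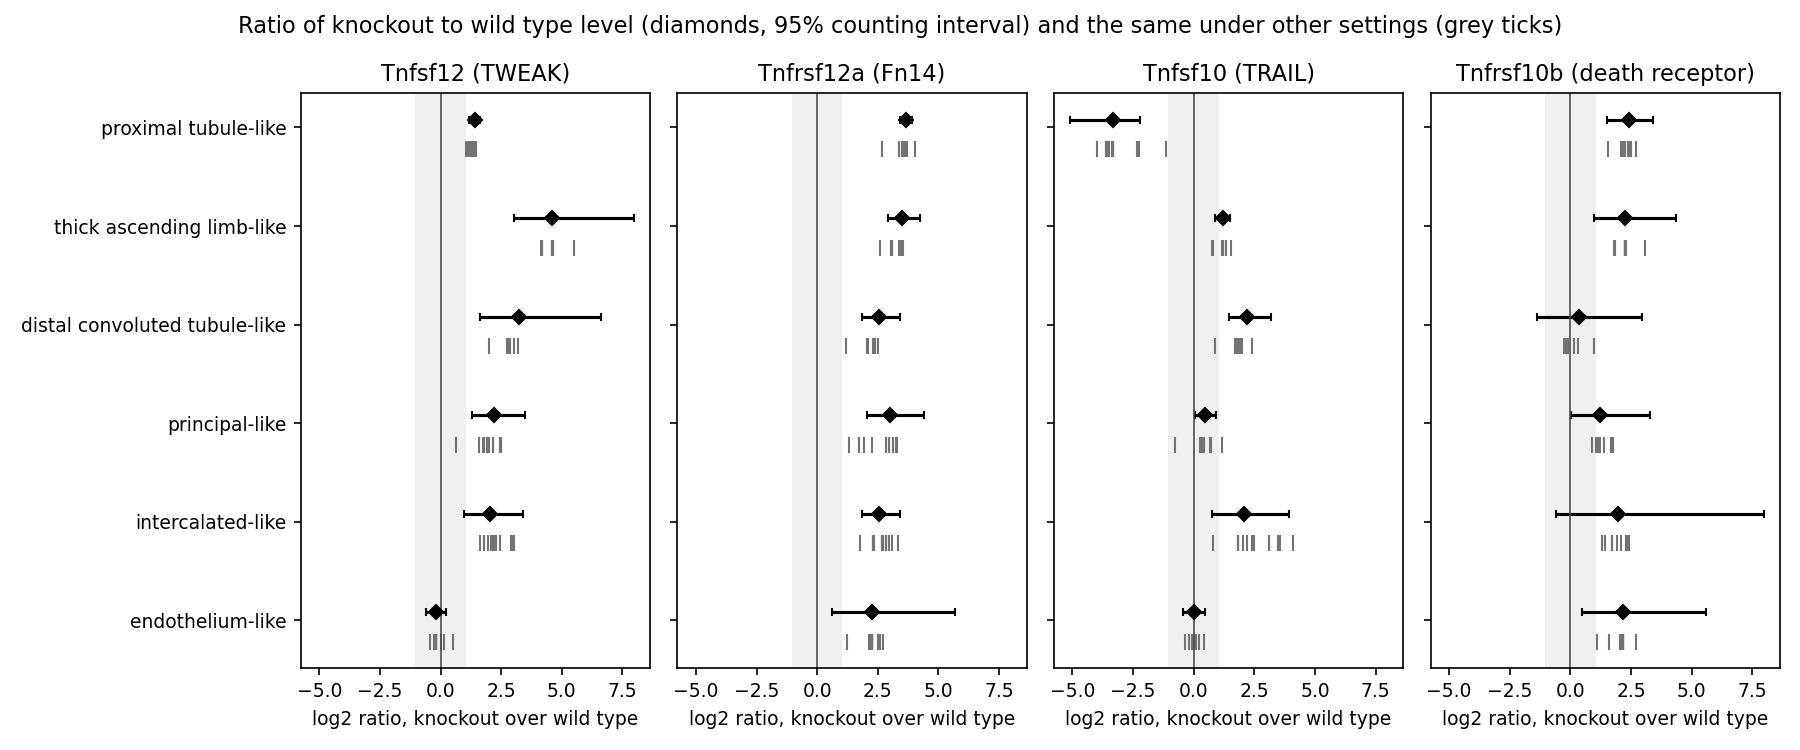
Log2 ratio of knockout over wild type (horizontal axis) for each gene and class, with diamonds and bars for the reported value and its 95% counting interval, grey ticks for the same ratio under other processing settings, and shading within 2-fold. All Tnfrsf12a ticks lie above 0, and Tnfsf10 is the gene with a ratio below the shading, at -3.33 in proximal tubule-like cells.

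Within the knockout, Tnfrsf12a varied between clusters of one class. Its level was 63.4 CPM (59.9 to 67.0) in principal-like cluster 5, led by the injury gene Lcn2, against 13.9 CPM (11.5 to 16.6) in cluster 1, led by the water channel gene Aqp2, which held 1121 and 699 knockout cells against 1 and 13 wild type cells. In cluster 6, which held 158 knockout and 156 wild type cells and was led by connecting tubule genes such as S100g and Calb1, it was 18.2 CPM (12.4 to 25.8) in knockout and 3.40 CPM (0.926 to 8.71) in wild type. Of the 1014 proximal tubule-like knockout cells, 99 lay outside cluster 0, in the clusters that held most wild type cells, and these had 5.36 CPM (1.11 to 15.7, 3 UMIs) against 67.8 CPM (62.8 to 73.1) in the 915 cells of cluster 0. The 99 cells had a median of 3956 UMIs and those of cluster 0 a median of 8242. Wild type proximal tubule-like cells had 5.08 CPM, within the interval of the 99 cells. In cluster 9, the 56 knockout cells had no Tnfrsf12a UMI and the 936 wild type cells had 5.46 CPM (26 UMIs). The highest level of any cluster, 202 CPM (178 to 230, 240 UMIs), was in cluster 7, a group of 101 knockout cells and 2 wild type cells led by Tagln, Vim, Cp, Akap12, C3 and Vcam1, which took no cell type name. These clusters were built from the same cells, with the 4 genes left out of the genes used to cluster, so the differences between clusters are a description.

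Cycling cells, marked by genes of DNA replication and mitosis, had 92.6 CPM (81.7 to 104) of Tnfrsf12a in 131 knockout cells and 22.8 CPM (15.5 to 32.4) in 87 wild type cells. In that order of classes, cycling, thick ascending limb-like, distal convoluted tubule-like and proximal tubule-like knockout cells overlapped with their neighbours' intervals, and proximal tubule-like did not overlap with principal-like cells. Among named knockout classes with at least 50 cells and a UMI, the lowest level was 5.71 CPM (3.44 to 8.92) in 664 macrophage-like cells. The next was 8.54 CPM (4.26 to 15.3) in 237 monocyte-like cells, which overlapped the interval of endothelium-like knockout cells. The 84 neutrophil-like cells had no UMI, which allows up to 31.1 CPM, so they cannot be ranked. A Tnfrsf12a UMI was found in 44.0% (39.8 to 48.1) of thick ascending limb-like knockout cells and 6.21% (3.89 to 9.34) of wild type ones. The share in macrophage-like knockout cells, taken here as a guide to free RNA, was 2.41% (1.38 to 3.88). Their median depth was 4277 UMIs, against 8852 UMIs in the thick ascending limb-like knockout cells. Free RNA was not measured, so this share may also hold transcripts made by the macrophage-like cells. Thinned to 1000 UMIs per cell, the share in thick ascending limb-like cells was 6.53% (4.64 to 8.88) in knockout and 0.612% (0.0742 to 2.19) in wild type, with 4 knockout and 11 wild type cells too shallow to thin, and 0.510% (0.105 to 1.48) in macrophage-like cells.

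**Figure D3:**
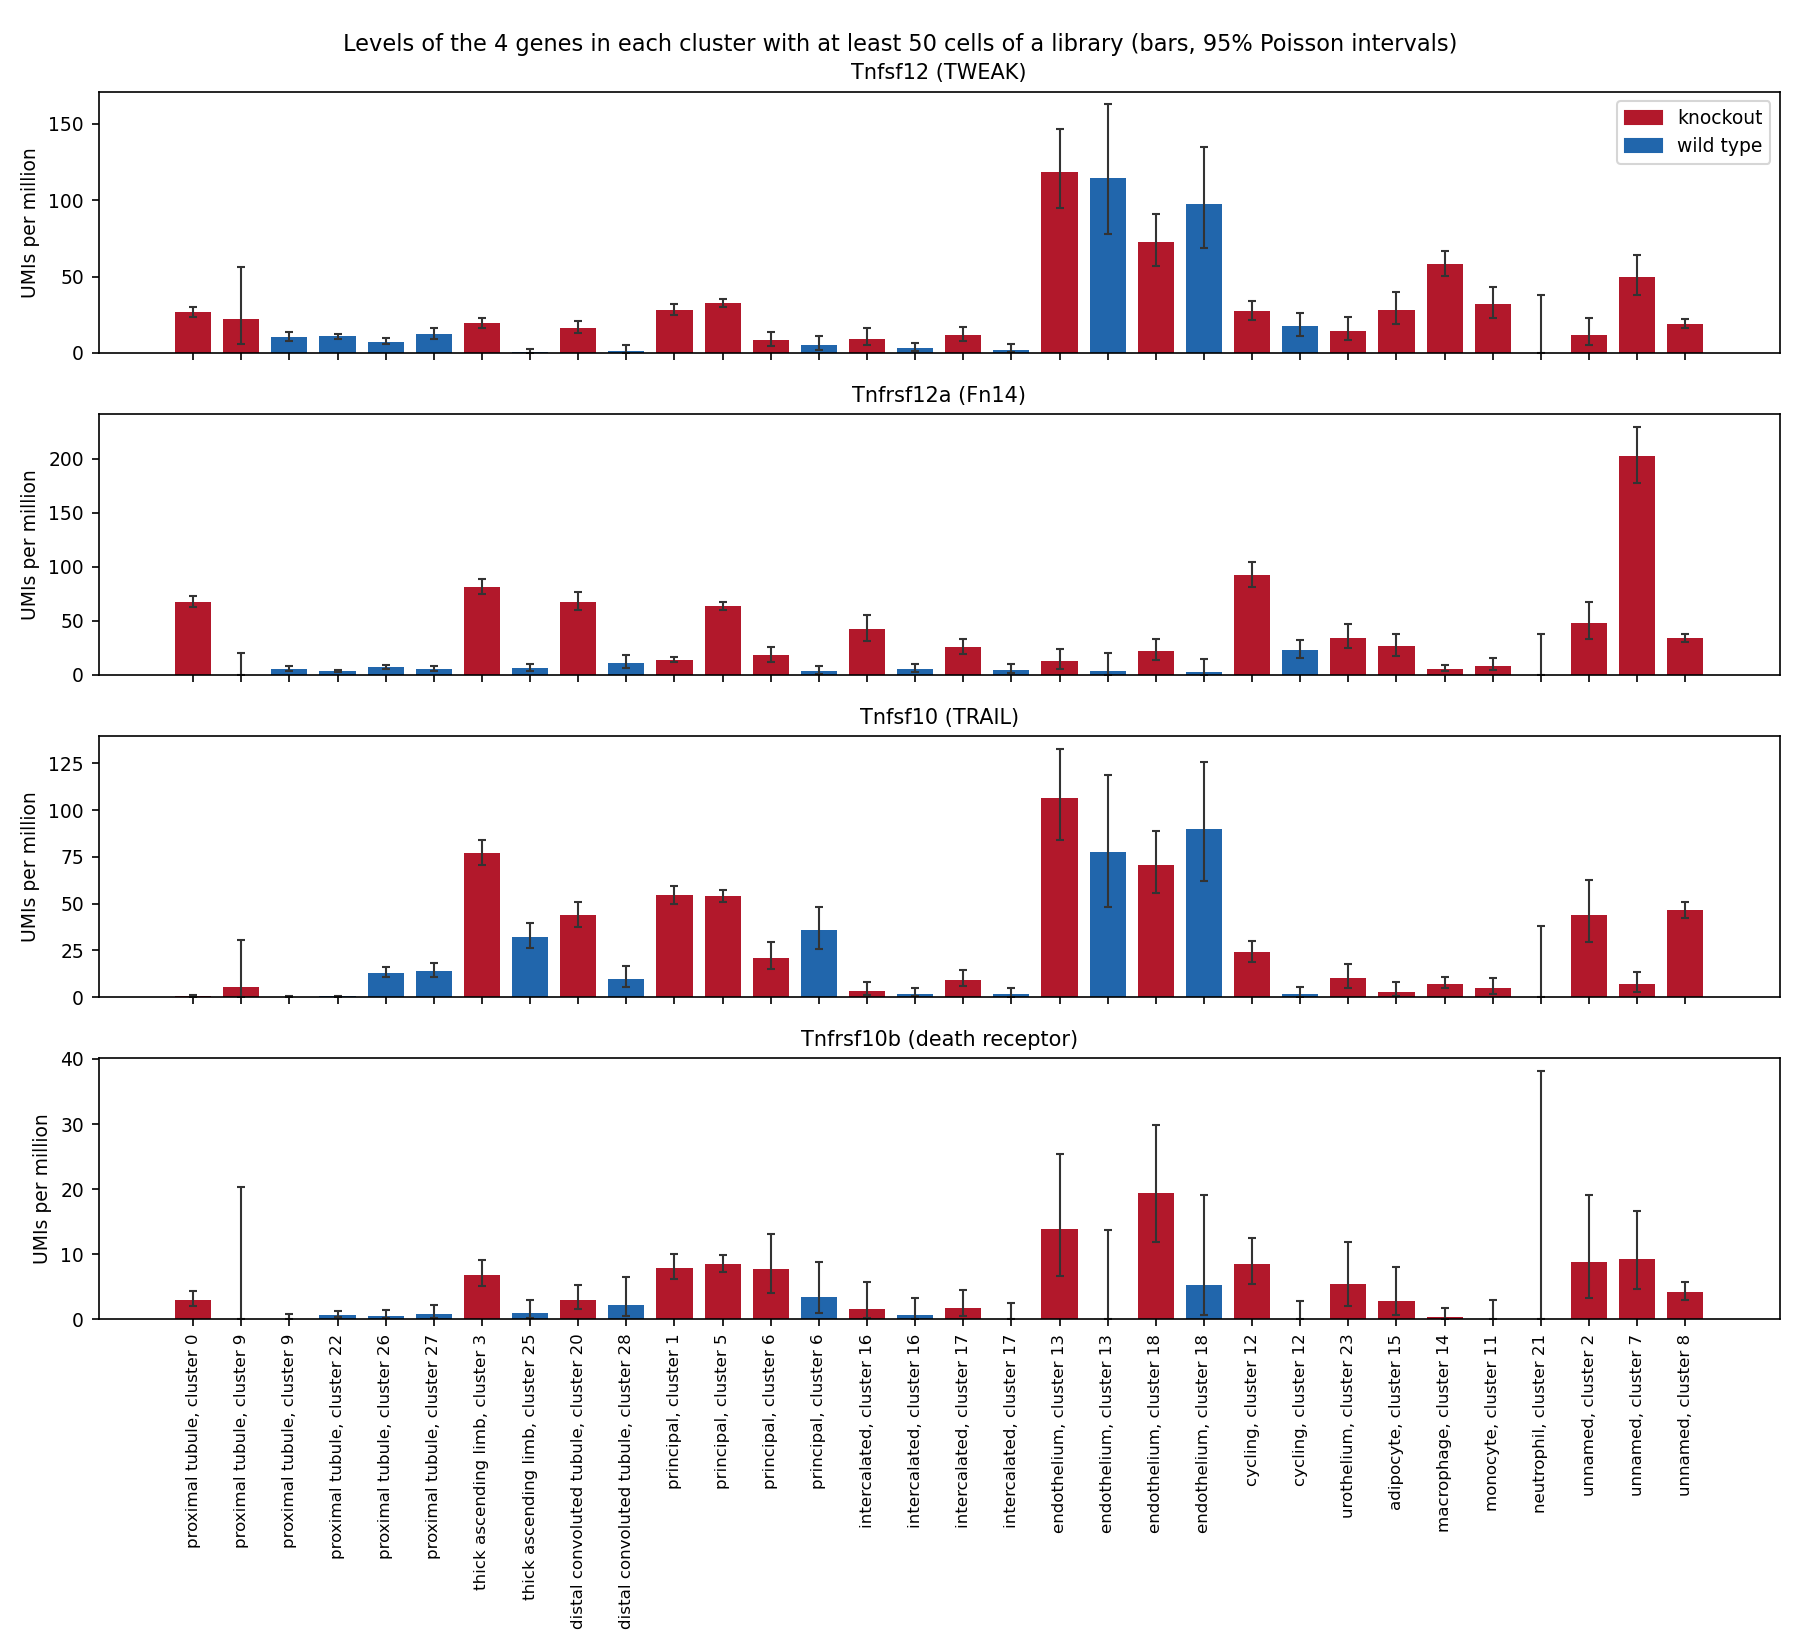
Level of each gene in CPM (vertical axis, 1 panel per gene with its own scale) in every cluster with at least 50 cells of a library, with knockout bars in red left of wild type bars in blue and 95% Poisson intervals. Cluster 7 has the highest Tnfrsf12a level at 202 CPM, and Tnfsf10 in wild type proximal tubule-like cells is found in clusters 26 and 27 at 13.0 and 13.9 CPM.

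Tnfrsf12a lies at chr17:23675445-23677468 on the minus strand (GRCm38, GENCODE vM21) and overlaps no other annotated gene. Its promoter and that of Tnfsf10 are shown because, of the members, only these 2 had a promoter entry. The sequences are from RefSeq (GRCm38.p6), run 5' to 3' on the gene's strand up to the first base that GENCODE places inside the gene, and carry in capitals each match to 6 motifs searched on both strands. The motifs were the GC box GGGCGG, the AP-1 motif TGANTCA, the NF-kB motif, the interferon response element core, the E-box CACGTG and the TEAD motif GGAATG. Tnfrsf12a (chr17:23677469-23677699, minus strand) held 5 GC boxes, none overlapping another motif, and Tnfsf10 (chr3:27316827-27317027, plus strand) held no match to any of the 6.
Tnfrsf12a: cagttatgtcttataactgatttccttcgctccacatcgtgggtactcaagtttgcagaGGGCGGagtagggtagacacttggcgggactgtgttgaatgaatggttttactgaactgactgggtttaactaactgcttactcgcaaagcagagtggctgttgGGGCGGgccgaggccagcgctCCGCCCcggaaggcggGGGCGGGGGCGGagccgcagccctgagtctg
Tnfsf10: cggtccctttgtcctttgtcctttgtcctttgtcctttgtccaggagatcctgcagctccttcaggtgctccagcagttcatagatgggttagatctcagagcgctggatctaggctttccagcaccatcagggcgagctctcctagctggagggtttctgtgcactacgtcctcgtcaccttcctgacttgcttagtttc
Of 32851 promoters in the table, 32.7% held a GC box within the 250 bases before the start, 6.75% the AP-1 motif, 0.356% the NF-kB motif, 2.98% the interferon response core, 6.02% the E-box and 12.6% the TEAD motif. A match is a description of letters and not a binding site.

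Tnfsf12, the TWEAK gene, was higher in the knockout in the 5 tubule classes and near level in endothelium. Endothelium-like cells had the highest level of the 6 classes in both libraries, 91.7 CPM (78.0 to 107) in knockout and 105 CPM (81.4 to 133) in wild type, with a log2 ratio of -0.20 (-0.61 to 0.24). Principal-like cells had 29.9 CPM (28.0 to 31.9) in knockout and 6.20 CPM (2.68 to 12.2, 8 UMIs) in wild type. Proximal tubule-like cells had 26.6 CPM (23.6 to 29.9) in knockout and 10.0 CPM (8.93 to 11.2) in wild type, a log2 ratio of 1.41 (1.17 to 1.65). In thick ascending limb-like cells the level was 19.0 CPM (15.9 to 22.4, 136 UMIs) in knockout and 0.627 CPM (0.0760 to 2.27, 2 UMIs) in wild type. That wild type level was the lowest among the 6 classes. Distal convoluted tubule-like cells had 16.4 CPM (12.7 to 20.9) in knockout and 1.40 CPM (0.170 to 5.07, 2 UMIs) in wild type. Intercalated-like cells had 10.8 CPM (7.62 to 14.8) in knockout and 2.51 CPM (1.08 to 4.94, 8 UMIs) in wild type. The knockout and wild type intervals did not overlap in any of the 5 tubule classes.

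The log2 ratios of Tnfsf12 were 4.60 (3.04 to 7.98) in thick ascending limb-like, 3.23 (1.64 to 6.62) in distal convoluted tubule-like, 2.18 (1.29 to 3.49) in principal-like and 2.03 (0.98 to 3.41) in intercalated-like cells. In the shared principal-like cluster 6 alone the levels were 8.22 CPM (14 UMIs) in knockout and 5.10 CPM (6 UMIs) in wild type, with a log2 ratio of 0.62 (-0.78 to 2.35), while knockout clusters 5 and 1 had 32.7 and 27.9 CPM. In the shared intercalated-like clusters 16 and 17 it was 9.39 and 11.5 CPM in knockout, against 2.87 and 2.07 CPM in wild type. The gene was also found outside the tubule. Podocyte-like cells, the filtering epithelium of the glomerulus, had 70.8 CPM (32.4 to 134) in 30 knockout cells and 112 CPM (61.1 to 188) in 17 wild type cells. Mural-like cells, which include mesangial, smooth muscle and renin cells, had 67.4 CPM (36.9 to 113) in 37 knockout cells and 66.7 CPM (35.5 to 114) in 48 wild type cells. Macrophage-like cells, with 664 in knockout and 4 in wild type, had 58.0 CPM (50.1 to 66.8) in knockout, and monocyte-like knockout cells had 31.8 CPM (22.8 to 43.2).

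The classes that gave the UMIs differed between libraries of unlike makeup. In knockout, principal-like cells gave 40.5% of the 2220 Tnfsf12 UMIs and proximal tubule-like cells 12.7%. Cells of clusters without a name, 13.1% of knockout cells, gave 11.5%, macrophage-like cells 8.69% and endothelium-like cells 7.25%. Wild type had 447 Tnfsf12 UMIs, of which proximal tubule-like cells gave 68.0% and endothelium-like cells 15.2%. Principal-like cells were 28.0% of knockout and 3.94% of wild type cells, and proximal tubule-like cells 14.4% of knockout and 68.2% of wild type cells.

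Tnfsf12 lies at chr11:69686250-69695849 on the minus strand (GRCm38) inside Tnfsfm13, a readthrough gene of TWEAK and its neighbour APRIL on the same strand, and also overlaps the antisense gene Tnfsf13os. Of its 1515 exon bases 731, or 48.3%, are shared with Tnfsfm13, and reads in shared exons may not have been assigned, so its level is uncertain in scale. Tnfsf13, the APRIL gene next to it, shares 60.0% of its exon bases with Tnfsfm13 and had no UMI in any cell, which cannot be read as absence of the transcript. The promoter table lists no entry under Tnfsf12 or Tnfrsf10b. The start annotated for Tnfsfm13 is preceded by the following bases (RefSeq, GRCm38.p6, chr11:69696099-69696348, minus strand, the same 6 motifs in capitals), which hold 1 GC box and no other match.
Tnfsfm13: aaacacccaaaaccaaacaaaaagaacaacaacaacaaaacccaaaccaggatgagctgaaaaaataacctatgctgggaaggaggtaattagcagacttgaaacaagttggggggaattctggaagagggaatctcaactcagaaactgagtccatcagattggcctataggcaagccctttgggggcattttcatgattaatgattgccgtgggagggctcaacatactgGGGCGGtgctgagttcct

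Tnfsf10, the TRAIL gene, was not higher throughout the tubule. In thick ascending limb-like cells it was 76.3 CPM (70.1 to 83.0) in knockout and 33.2 CPM (27.2 to 40.2) in wild type, a log2 ratio of 1.19 (0.90 to 1.51) that lay under 2-fold, at 0.74 to 0.78, when scaled without mitochondrial genes, by median-of-ratios or by TMM factors. In distal convoluted tubule-like cells it was 43.7 CPM (37.5 to 50.7) in knockout and 9.13 CPM (4.86 to 15.6) in wild type, a log2 ratio of 2.21 (1.45 to 3.20). Principal-like cells had 52.3 CPM (49.7 to 54.9) in knockout and 38.0 CPM (28.1 to 50.2) in wild type, a log2 ratio of 0.45 (0.05 to 0.90) that ran from -0.75 to 1.17 under other settings. In thick ascending limb-like and distal convoluted tubule-like cells the intervals of the libraries did not overlap, and in principal-like cells they did. Intercalated-like cells had little of it, 7.08 CPM (4.58 to 10.5) in knockout and 1.57 CPM (0.509 to 3.65, 5 UMIs) in wild type. Endothelium-like cells had 85.4 CPM (72.3 to 100) in knockout and 84.8 CPM (63.9 to 110) in wild type, a log2 ratio of 0.00 (-0.44 to 0.48).

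Proximal tubule-like cells were the exception. They had 0.473 CPM (0.154 to 1.10, 5 UMIs in 1014 cells) in knockout and 5.21 CPM (4.43 to 6.09, 158 UMIs in 2944 cells) in wild type, a log2 ratio of -3.33 (-5.10 to -2.21). The wild type UMIs were not spread over the class. Clusters 26 and 27, led by the kidney androgen-regulated gene Kap and by Akr1c21, held 97 and 57 of the 158 UMIs, at 13.0 and 13.9 CPM, while cluster 22 had 4 UMIs at 0.287 CPM and cluster 9 none in 936 cells. Kap itself stood at 37200 and 59545 CPM in clusters 26 and 27, and at 704 and 173 CPM in wild type cells of clusters 9 and 22. Wild type cells of the other 5 classes had 222 to 528 CPM of Kap, which holds any free Kap RNA, and cluster 22 lay below that range. In knockout cluster 0 Kap was at 1092 CPM and Tnfsf10 at 0.400 CPM. A Kap UMI was found in 104 of the 1014 knockout proximal tubule-like cells (10.3%), so that level came from a minority of cells. The sodium-glucose transporter gene Slc5a2, a marker of the early proximal tubule, had the opposite order, with 407 CPM in knockout cluster 0, 866 and 1223 CPM in wild type clusters 9 and 22, and 289 and 80.0 CPM in wild type clusters 26 and 27. Clusters 26 and 27 held 1 and 2 knockout cells, so Tnfsf10 could not be compared between the libraries within them. With predicted doublets kept, the log2 ratio was -1.16 (-1.84 to -0.58). The knockout proximal tubule-like level of 0.473 CPM, which holds any free Tnfsf10 RNA in those droplets, stood against 7.08 to 85.4 CPM in the other 5 knockout classes.

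Between shared clusters the Tnfsf10 ratios differed in direction. In principal-like cluster 6 the level was 21.1 CPM (36 UMIs) in knockout and 35.7 CPM (42 UMIs) in wild type, a log2 ratio of -0.75 (-1.44 to -0.08), whereas the knockout clusters 5 and 1 had 54.1 and 54.4 CPM. The endothelium-like cluster 13, led by Plat, Emcn and Ehd3, had 106 CPM (83.9 to 133) in knockout and 77.7 CPM (48.1 to 119) in wild type. The other endothelium-like cluster, 18, led by Tm4sf1 and Fabp4, had 70.7 CPM (55.4 to 88.9) in knockout and 89.9 CPM (62.2 to 126) in wild type. Neither endothelial ratio had an interval that left out 0. Cycling cells had 23.8 CPM (18.5 to 30.2) in knockout and 1.47 CPM (0.178 to 5.32, 2 UMIs) in wild type. Cluster 7, which had the most Tnfrsf12a, had 6.75 CPM (2.91 to 13.3, 8 UMIs) of Tnfsf10. The gene lies at chr3:27317028-27342427 on the plus strand (GRCm38) and overlaps no other annotated gene.

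A Tnfsf10 UMI was found in 42.7% (40.5 to 44.9) of principal-like knockout cells and 21.2% (15.3 to 28.1) of wild type ones, at medians of 10872.5 and 6773.5 UMIs per cell. Thinned to 1000 UMIs the shares were 4.64% (3.75 to 5.67) in knockout and 4.24% (1.72 to 8.54) in wild type. In knockout, 50.9% of the 3088 Tnfsf10 UMIs came from principal-like cells, 17.7% from thick ascending limb-like cells and 16.0% from cells of clusters without a name. In wild type, 39.8% of 397 UMIs came from proximal tubule-like, 26.7% from thick ascending limb-like, 13.9% from endothelium-like and 12.3% from principal-like cells.

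Tnfrsf10b, the death receptor gene, was scarce throughout, with 466 UMIs in all knockout cells and 32 in all wild type cells. Endothelium-like cells had 17.1 CPM (11.5 to 24.4, 30 UMIs) in knockout and 3.08 CPM (0.373 to 11.1, 2 UMIs) in wild type, a log2 ratio of 2.17 (0.49 to 5.58). Principal-like cells had 8.21 CPM (7.22 to 9.30, 247 UMIs) in knockout and 3.10 CPM (0.844 to 7.93, 4 UMIs) in wild type, a log2 ratio of 1.24 (0.03 to 3.29). Thick ascending limb-like cells had 6.70 CPM (4.94 to 8.88, 48 UMIs) in knockout and 1.25 CPM (0.342 to 3.21, 4 UMIs) in wild type, a log2 ratio of 2.26 (0.97 to 4.35). Only for this last class and proximal tubule-like and endothelium-like cells did the knockout interval lie above the wild type interval. Proximal tubule-like cells had 2.84 CPM (1.92 to 4.06, 30 UMIs) in knockout and 0.528 CPM (0.302 to 0.857, 16 UMIs) in wild type, a log2 ratio of 2.41 (1.51 to 3.40). In distal convoluted tubule-like cells 12 knockout and 3 wild type UMIs gave 2.98 and 2.11 CPM, and in intercalated-like cells 6 and 1 UMIs gave 1.70 and 0.313 CPM, and neither ratio had an interval that left out 0. Macrophage-like knockout cells had 1 UMI, or 0.301 CPM (0.00761 to 1.68). Cycling cells had 8.41 CPM (24 UMIs) in knockout and no UMI in 87 wild type cells, which allows up to 2.21 CPM. Tnfrsf10b lies at chr14:69767472-69784411 on the plus strand (GRCm38) and overlaps no other annotated gene.

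Cells with UMIs of both a ligand and its receptor were counted in each class. Of 571 thick ascending limb-like knockout cells, 75 (13.1%) held UMIs of both Tnfsf12 and Tnfrsf12a, against 1 of 338 (0.296%) wild type cells. In principal-like cells this was 265 of 1978 (13.4%) in knockout and 1 of 170 (0.588%) in wild type, and in proximal tubule-like cells 103 of 1014 (10.2%) in knockout and 23 of 2944 (0.781%) in wild type. Tnfsf10 and Tnfrsf10b were found together in 132 (6.67%) principal-like knockout cells and 1 (0.588%) wild type cell. Cells with both genes of a pair were deep: those with Tnfsf12 and Tnfrsf12a had a median of 22028 UMIs in knockout, against 7799 over all knockout cells, and the part of depth in these counts was not tested.

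Other receptors of the ligands were read mainly in a few classes. The decoy receptor genes Tnfrsf22 and Tnfrsf23, whose products bind TRAIL in mice, had 13.7 and 10.8 CPM in endothelium-like knockout cells and 18.5 and 20.0 CPM in wild type ones, and their relative Tnfrsf26 had 10.8 CPM in knockout and 13.9 CPM in wild type. Tnfrsf11b, which encodes osteoprotegerin, a soluble decoy that can bind TRAIL, had 17.6 CPM (31 UMIs) in knockout and 9.25 CPM (6 UMIs) in wild type endothelium-like cells. None of the 4 passed 2-fold there. Neutrophil-like knockout cells had 82.8 CPM (35.8 to 163, 8 UMIs in 84 cells) of Tnfrsf23. In thick ascending limb-like cells Tnfrsf23 had 4.46 CPM (32 UMIs) in knockout and 0.314 CPM (1 UMI) in wild type. Cd163, a scavenger receptor of macrophages that can bind TWEAK, had 70.7 CPM (61.9 to 80.3) in macrophage-like knockout cells, which gave 235 of the 242 knockout UMIs, and 2 UMIs in all wild type cells.

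Genes of the pathways were counted by list, and the count of genes at least 2-fold higher is to be read against the share of all genes given above. Of 14 chemokine, cytokine and adhesion genes known as Fn14 responses, those with at least 20 UMIs were higher in 8 of 9 cases in proximal tubule-like, 9 of 9 in thick ascending limb-like, 4 of 4 in distal convoluted tubule-like, 9 of 12 in principal-like, 3 of 3 in intercalated-like and 1 of 5 in endothelium-like cells, with none lower. The genes that did not reach 20 UMIs are outside these counts, and a gene with no wild type UMI is counted here and below from the 0.5 UMIs added. In principal-like cells 6 of the 12 genes had no wild type UMI and reached 20 UMIs through the knockout alone. The list median of 2.65 was 1.23 with these set against 3 counts. Cxcl1, Ccl7 and Cxcl2, named after their values were seen, had 2.19, 2.66 and 3.96 CPM in principal-like knockout cells. Each is below 2-fold of the 2.32 CPM that no UMI allows in wild type. Their place among the 9 of 12 thus rests on the 0.5 UMIs added. The neutrophil chemokine gene Cxcl1 had 20.2 CPM in knockout and 0.165 CPM in wild type proximal tubule-like cells, and the adhesion gene Vcam1 had 24.6 and 0.264 CPM. Csf1, a growth factor of macrophages, had 8.81 CPM in knockout and 0.0660 CPM in wild type of that class. Icam1, another adhesion gene, had 11.9 CPM in thick ascending limb-like, 6.71 CPM in distal convoluted tubule-like, 19.3 CPM in principal-like and 8.50 CPM in intercalated-like knockout cells, and no UMI in the wild type cells of these 4 classes. In endothelium-like cells Vcam1 stood at 51.8 CPM in knockout and 21.6 CPM in wild type. The list median log2 ratio was 4.59 in proximal tubule-like cells, against 0.26 over all genes. In thick ascending limb-like cells it was 5.49, or 3.48 with the 5 genes that had no wild type UMI set against 3 counts, against 0.48 over all genes.

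Of the 23 Fn14 adaptor and NF-kB genes, 13 of 22 measured were higher in proximal tubule-like, 12 of 22 in thick ascending limb-like and 13 of 20 in distal convoluted tubule-like cells. The counts were 4 of 23 in principal-like, 4 of 20 in intercalated-like and 2 of 21 in endothelium-like cells, where 1 was lower. Relb, a subunit of the noncanonical pathway, had 18.4 CPM in knockout and 3.14 CPM in wild type thick ascending limb-like cells, 6.16 and 0.858 CPM in proximal tubule-like and 13.3 and 3.13 CPM in intercalated-like cells. Birc3, an inhibitor of apoptosis that binds TRAF2, had 6.44 CPM in knockout and 0.462 CPM in wild type proximal tubule-like cells. Bcl3, a nuclear partner of NF-kB, had 23.5 CPM in knockout and 1.55 CPM in wild type principal-like cells. The list medians were 1.10, 1.14, 1.07, 0.04, 0.65 and 0.02 in proximal tubule-like, thick ascending limb-like, distal convoluted tubule-like, principal-like, intercalated-like and endothelium-like cells, against 0.26, 0.48, 0.55, 0.09, 0.25 and 0.02 over all genes. Relative to the median gene the count in thick ascending limb-like cells was 7 and in distal convoluted tubule-like cells 6. The share of all genes on that base is not given here, so these lower counts cannot be set against the shares above.

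Among 22 genes of the death receptor and apoptosis list, 5 of 20 measured were higher in proximal tubule-like, 8 of 20 in thick ascending limb-like, 7 of 19 in distal convoluted tubule-like, 5 of 22 in principal-like, 2 of 20 in intercalated-like and 1 of 21 in endothelium-like cells, with 1 lower in each of thick ascending limb-like, distal convoluted tubule-like and principal-like cells. Bid, which links caspase 8 to mitochondria, had 10.7 CPM in knockout and 2.51 CPM in wild type thick ascending limb-like cells, and 17.8 and 2.32 CPM in principal-like cells. Mcl1, which protects from apoptosis, had 248 CPM in knockout and 66.8 CPM in wild type thick ascending limb-like cells. Bcl2, which also protects from apoptosis, had 50.4 CPM in knockout and 156 CPM in wild type principal-like cells. The list medians lay between -0.12 in endothelium-like and 0.72 in thick ascending limb-like cells, against 0.02 and 0.48 over all genes. The counts in intercalated-like and endothelium-like cells, 2 of 20 and 1 of 21, were near the shares of all genes, 8.78% and 4.92%. In the other classes the share of list genes that were higher was above that of all genes.

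**Figure D4:**
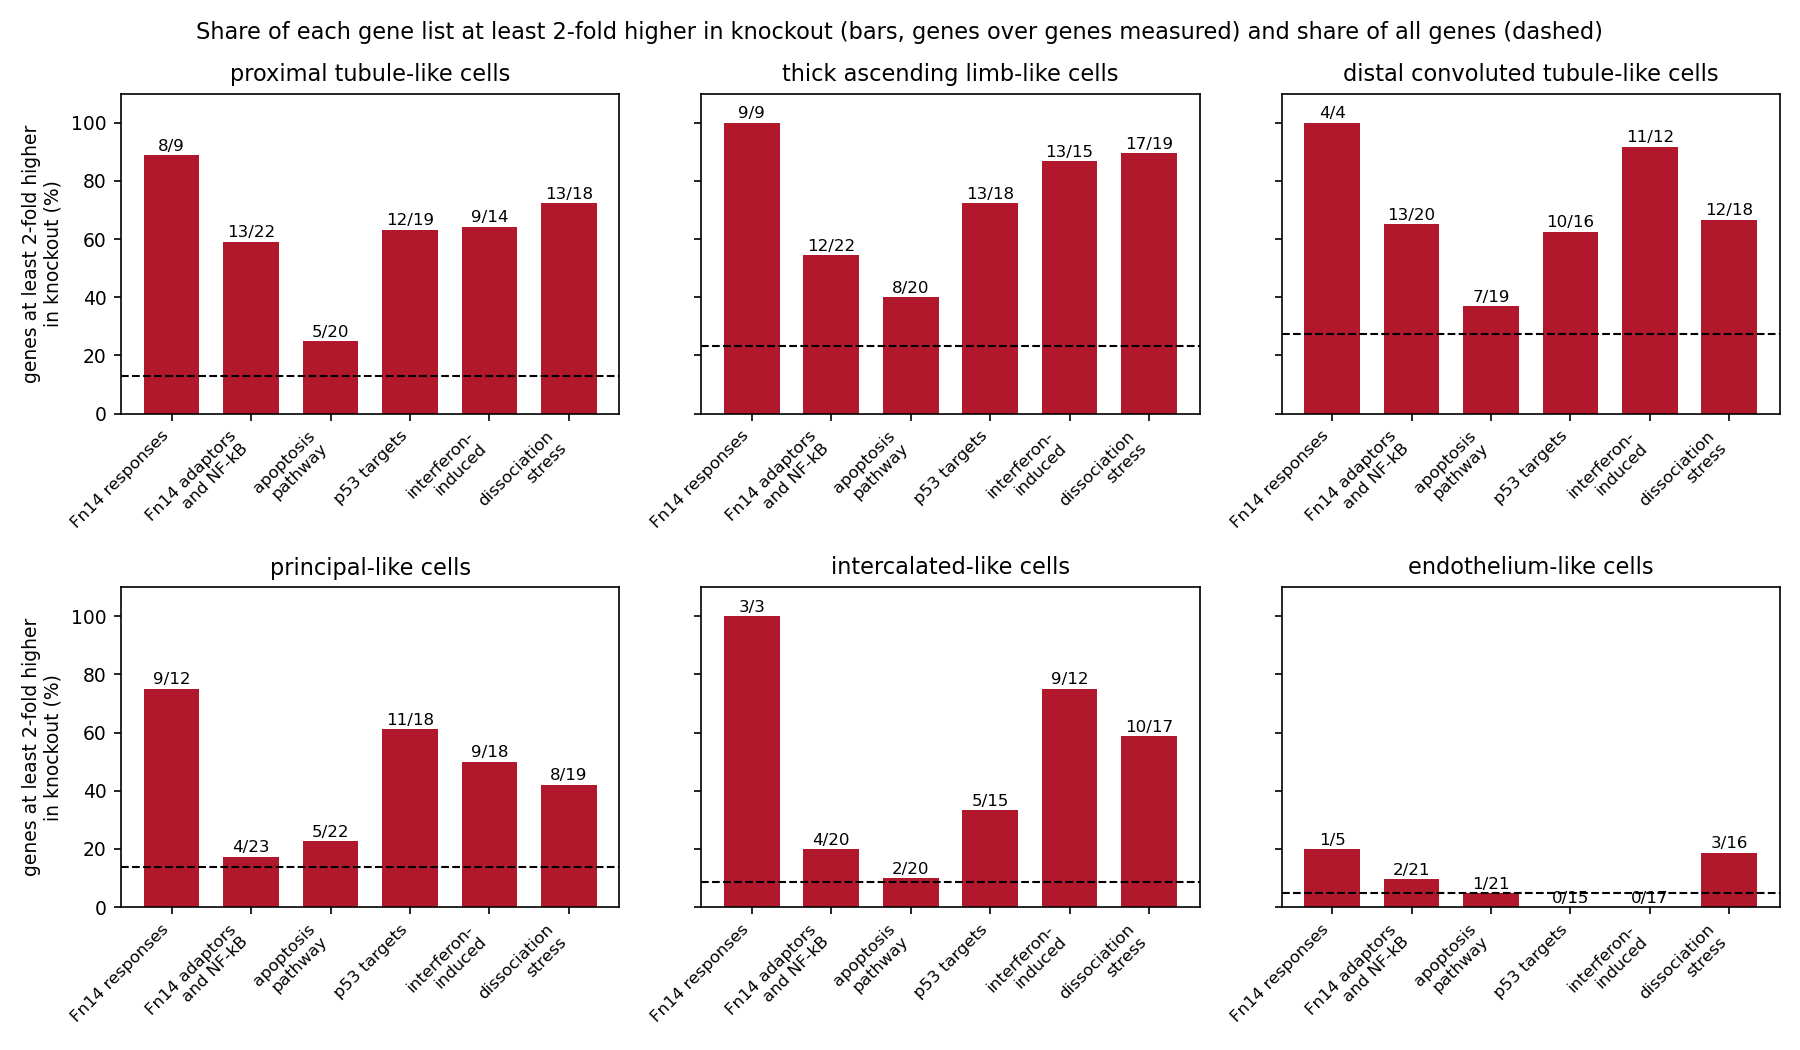
Percent of the measured genes of 6 lists that were at least 2-fold higher in knockout than in wild type (bars, with genes higher over genes measured) in each of 6 classes, and the percent of all genes (dashed line). Fn14 response genes reach 9/9 in thick ascending limb-like cells, where 23.3% of all genes were higher, and p53 and interferon-induced genes have 0/15 and 0/17 in endothelium-like cells.

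Tnfrsf10b is a known target of p53 and Tnfsf10 a gene that interferon induces, so both lists are given. Of 19 p53 targets, 12 of 19 measured were higher in proximal tubule-like, 13 of 18 in thick ascending limb-like, 10 of 16 in distal convoluted tubule-like, 11 of 18 in principal-like, 5 of 15 in intercalated-like and 0 of 15 in endothelium-like cells, with 1 lower in each of distal convoluted tubule-like and endothelium-like cells. Cdkn1a, the inhibitor of the cell cycle that p53 induces, had 186 CPM in knockout and 2.51 CPM in wild type thick ascending limb-like cells and 147 and 6.20 CPM in principal-like cells. Gdf15, a stress hormone, had 125 CPM in knockout and 1.88 CPM in wild type thick ascending limb-like cells, and 6.83 CPM in knockout and 26.2 CPM in wild type endothelium-like cells. Of 19 interferon-induced genes, 9 of 14 were higher in proximal tubule-like, 13 of 15 in thick ascending limb-like, 11 of 12 in distal convoluted tubule-like, 9 of 18 in principal-like, 9 of 12 in intercalated-like and 0 of 17 in endothelium-like cells, with 1 lower in each of proximal tubule-like, intercalated-like and endothelium-like cells. Irf1, a transcription factor that interferon induces, had 20.0 CPM in knockout and 0.627 CPM in wild type thick ascending limb-like cells, and 8.43 and 0.693 CPM in proximal tubule-like cells, the class where Tnfsf10 was lower. Irf7 had 60.9 CPM in knockout and 131 CPM in wild type endothelium-like cells.

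Among other members of the family, Tnfrsf1a, the main receptor of tumour necrosis factor, had 40.5 CPM in knockout and 9.67 CPM in wild type proximal tubule-like cells and 53.5 and 19.4 CPM in intercalated-like cells. Fas, another death receptor, had 10.1 CPM in knockout and 0.775 CPM in wild type principal-like cells and 5.02 and 0.314 CPM in thick ascending limb-like cells. Among 22 other receptors, 3 of 8 measured were higher in proximal tubule-like, 3 of 5 in thick ascending limb-like, 1 of 3 in distal convoluted tubule-like, 5 of 7 in principal-like, 1 of 4 in intercalated-like and 0 of 7 in endothelium-like cells, with 1 lower in each of thick ascending limb-like and endothelium-like cells. Of the 15 other ligands, 5 reached 20 UMIs in principal-like cells, none with an interval of its ratio that left out 0, 3 in thick ascending limb-like cells, where 1 was lower, and 1 in proximal tubule-like cells.

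Genes of dissociation stress also differed between the libraries. Of 19, 13 of 18 measured were at least 2-fold higher in proximal tubule-like, 17 of 19 in thick ascending limb-like, 12 of 18 in distal convoluted tubule-like, 8 of 19 in principal-like, 10 of 17 in intercalated-like and 3 of 16 in endothelium-like cells, where 1 was lower. The 19 genes summed to 4379 CPM in knockout and 1694 CPM in wild type thick ascending limb-like cells, 4421 and 1729 CPM in distal convoluted tubule-like, 3510 and 2080 CPM in intercalated-like, 3490 and 2357 CPM in principal-like, 2592 and 2333 CPM in proximal tubule-like and 6217 and 6854 CPM in endothelium-like cells. In cells at or under the wild type median of that sum, a step added after the data were seen, Tnfrsf12a had 34.0 CPM in knockout and 5.37 CPM in wild type proximal tubule-like cells, 29.5 and 4.85 CPM in thick ascending limb-like, 25.6 and 11.2 CPM (9 UMIs each) in distal convoluted tubule-like and 20.0 and 5.80 CPM in intercalated-like cells. It had 12.5 CPM in knockout and no UMI in wild type principal-like cells, and 19.9 CPM and no UMI in endothelium-like cells. The knockout levels of the 5 tubule classes were thus lower among these cells than in the whole class, and still above wild type, with an interval that reached below 0 in distal convoluted tubule-like cells (log2 ratio 1.19, -0.32 to 2.70). Among such thick ascending limb-like cells (36 in knockout, 169 in wild type), Tnfsf10 stood at 88.5 CPM in knockout and 30.9 CPM in wild type. Among such distal convoluted tubule-like cells (38 in knockout, 90 in wild type), Tnfsf12 had no UMI in knockout and 2.49 CPM (2 UMIs) in wild type, so the higher knockout level of the whole class was not seen there, and Tnfrsf10b had 2.85 CPM (1 UMI) in knockout and 3.74 CPM (3 UMIs) in wild type. Median mitochondrial shares differed as well, 7.37% in knockout and 34.2% in wild type thick ascending limb-like cells and 20.0% and 28.0% in proximal tubule-like cells. Their part in the results was not tested beyond the limits tried in the closing section. The 25% limit left 66 wild type thick ascending limb-like and 40 wild type distal convoluted tubule-like cells. These were too few to compare, so that limit gave no ratio in either class.

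Across 19 sums of a class in a library, the genes with the most similar pattern of log2(CPM + 1) were named for each member from 9773 candidates. For Tnfrsf12a these were Eif1ax, Polr2h, Polr2f and Pdcd5, with Pearson's r of 0.87, 0.86, 0.85 and 0.85. Tnfsf12 was most like Eif4h, Dusp22, Fkbp1a, Kdelr2 and C1d (r of 0.89 to 0.88). Tnfsf10 was most like Btbd2, Dnm3, Epha4, Dock1 and Mansc1 (r of 0.89 to 0.85), and Tnfrsf10b like Actn4, S100a16, Nrep, Vcl and Agrn (r of 0.87 to 0.85). Between the members, r was 0.42 for Tnfsf12 with Tnfrsf12a and 0.70 for Tnfsf10 with Tnfrsf10b. The sums of a library share its depth and free RNA, so these values are descriptions.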

How the data were processed

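The starting point was the filtered matrix of UMI counts that the authors deposited for each library (10x Chromium 3' chemistry, per the labels' protocols). Cell Ranger 3.1.0 is named in the file headers. The submitters' processing notes give version 3.0.2 of it, with Seurat 3.1.1 and the mouse build mm10. Barcodes under 500 UMIs, under 200 genes or at 50% mitochondrial UMIs and above were dropped, and Scrublet removed 170 knockout and 54 wild type doublets. Both libraries were clustered together without integration (scanpy 1.11.5, 2000 variable genes without the 4 members, 30 components, 15 neighbours, Leiden resolution 1, seed 0), which gave 29 clusters. A cluster was named where 3 or more markers of a type had 50 CPM and 20 UMIs and stood 2-fold above the median cluster, as long as its 10 leading genes did not go against the name.

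UMIs were summed per class and library and divided by the class total (CPM), with exact Poisson intervals, Clopper-Pearson intervals for shares, and a conditional interval for 2 Poisson sums for log2 ratios (0.5 UMIs added). A count of 0 allows up to 3 counts. PCR and droplet effects are outside these intervals. Total kept UMIs were 79060495 in knockout and 42468386 in wild type. The steps were tested on simulated sums. The members and lists were chosen with earlier results of these data known. Named genes were the members, the 5 genes most like each in pattern (1 of which is not reported here), the decoy receptors, and up to 3 genes per list and class with the largest ratio. Mx2 of the interferon list is not among the names in the files. Promoters came from RefSeq, where 2 of the 4 members had an entry.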

Additional observations from a re-analysis of the deposited data

Results flagged for a closer look

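Tnfsf10 was lower in knockout than in wild type proximal tubule-like cells, with a log2 ratio of -3.33, while its ratio in thick ascending limb-like, distal convoluted tubule-like, principal-like and intercalated-like cells was above 0. The difference between the classes was not tested. The wild type level rested on clusters 26 and 27, which held 573 and 524 wild type cells and 1 and 2 knockout cells.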

How the results depend on the processing

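Every log2 ratio of Tnfrsf12a stayed above 0 in each class and setting that gave one, from 2.66 to 4.02 in proximal tubule-like, 2.58 to 3.52 in thick ascending limb-like, 1.19 to 2.50 in distal convoluted tubule-like, 1.33 to 3.31 in principal-like, 1.78 to 3.33 in intercalated-like and 1.24 to 2.73 in endothelium-like cells. Proximal tubule-like cluster 9 gave no ratio and lies outside these ranges. It had no Tnfrsf12a UMI in 56 knockout cells and 26 UMIs in 936 wild type cells. With a 25% mitochondrial limit Tnfrsf12a was 4.02 in proximal tubule-like and 1.33 in principal-like cells. With doublets kept it was 1.74 in principal-like cells and Tnfsf10 was -1.16 in proximal tubule-like cells. Tnfrsf12a in principal-like cells was 1.94 at resolution 2 and 1.71 with the members in the clustering, and Tnfsf10 in intercalated-like cells was 4.09 with the libraries clustered separately. The settings that moved Tnfrsf12a in principal-like cells also left fewer knockout cells under that name. Median-of-ratios and TMM scaling gave 1.11 under both for Tnfsf12 and 3.36 and 3.37 for Tnfrsf12a in proximal tubule-like cells, and 0.78 under both for Tnfsf10 in thick ascending limb-like cells, where leaving out mitochondrial genes gave 0.74. The other 3 alternatives were chosen after seeing the data. In cells with few dissociation transcripts Tnfsf12 was 1.07 in proximal tubule-like and 0.53 in endothelium-like cells, Tnfrsf12a was 2.66, 2.58, 1.19 and 1.78 in proximal tubule-like, thick ascending limb-like, distal convoluted tubule-like and intercalated-like cells, and Tnfsf10 was 1.52, 0.89 and 1.17 in thick ascending limb-like, distal convoluted tubule-like and principal-like cells. In principal-like cluster 6 alone Tnfsf12 was 0.62 and Tnfsf10 had the opposite sign, -0.75. Here a ratio counts as moved where it leaves the 95% counting interval of the reported one. The mean over cells moved none of 24 in this sense, although distal convoluted tubule-like cells gave 1.99 and thick ascending limb-like cells 5.51 for Tnfsf12, and Tnfsf10 was -2.33 in proximal tubule-like cells. In distal convoluted tubule-like cells with few dissociation transcripts, Tnfsf12 had no knockout UMI and gave no ratio. Tnfrsf10b in distal convoluted tubule-like cells ranged from -0.27 to 0.97 and has no direction. The causes were not tested. Of 108 list counts, 14 moved when set relative to the median gene, 32 with genes of at least 1 UMI and 30 with genes of at least 100 UMIs, and 45 of 48 shares moved on thinning.

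At resolution 0.5 and with the 25% mitochondrial limit 4 classes had 100 cells in each library, and 5 with doublets kept. The 25% limit lost the thick ascending limb-like and distal convoluted tubule-like classes. Resolution 0.5 lost the distal convoluted tubule-like and principal-like classes, and keeping doublets lost the distal convoluted tubule-like class. A ratio was not computed where a library had no UMI of the gene or neither passed 3 UMIs. Low counts limit Tnfrsf10b, with 32 UMIs in wild type, and every gene in wild type principal-like cells, with 170 cells. No paired analysis was possible because each genotype had 1 library and no result comes from a test.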
